A study of Mus musculus with 8 samples.

Results

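The genes described are enzymes of cholesterol synthesis and the transcription factor that controls them, chosen by name as Hmgcs1, Idi1, Fdps, Fdft1, Sqle, Lss, Cyp51 and Srebf2, in ileum RNA of LGR5-null mouse embryos set against wild-type embryos. Of the 8 genes, 7 had at least 1 probe with that symbol in the platform annotation, with 11 probes in all, among 15123 named genes on the array. No probe carried the symbol Srebf2 in the annotation used here, so Srebf2 was not analysed here. The working name of the group also mentions uptake, but the chosen genes hold no uptake gene, so uptake genes are taken up among the other pathway genes further on.

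Both groups were late fetal mice. The null embryos were LGR5-/- and the wild-type embryos LGR5+/+, and the LGR5 protein binds R-spondins, which strengthen Wnt signalling, and marks stem cells of the adult gut. The labels give stage E18.5 for every array, and the design text gives a range up to day 19 and 3 heterozygous parental couples, without saying which pairs share a couple. Each of 4 pairs of embryos was hybridised on 2 MEEBO arrays of 70-base oligonucleotides, once with the null sample in Cy5 and once with it in Cy3. The sources used here give neither the way the null allele was made nor strain or sex.

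Cholesterol is built from acetyl-CoA through mevalonate, isoprenoid diphosphates, squalene and lanosterol. When sterols run low in the endoplasmic reticulum, the escort protein SCAP carries the SREBP factors to the Golgi, where proteases release them, and SREBP2 then switches on most genes of the pathway. The small intestine both makes cholesterol and takes it up from bile and food, and fetal tissues rely heavily on their own synthesis.

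Values are log ratios deposited by the authors, read as log2 of null over wild type, so a value of 0 means equal RNA and a negative value less RNA in the null ileum. The base of the logarithm is not stated in the sources used here, so folds rest on that reading. The direction rests on the targeted gene: the Lgr5 probe lay between -2.10 and -0.79 on the 8 arrays, with a mean of -1.59 ± 0.47 (SD, n = 4 pairs), and the place of this probe relative to the null allele is not known. Array medians lay between -0.002 and 0.002, and the dye-swapped arrays of a pair correlated across probes at r = 0.312 to 0.783. No spot intensities were used, as the table holds ratios alone, so it cannot be said how far each probe stood above background. As the values are ratios, they give no level of any gene and do not let the labelled tissue be checked by its markers. In bulk RNA, fewer cells of a type and less RNA per cell cannot be told apart.

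RefSeq promoter windows of mouse build GRCm38.p6 were available for 4 of the 7 measured genes, Hmgcs1, Idi1, Lss and Cyp51, and for Srebf2. Each runs from 250 bases before to 50 bases after the start site of the gene. The windows of Hmgcs1 and Idi1 are shown because the ratios of these genes ranged most widely between the pairs of embryos. They lie at chr13:119690101-119690400 and chr13:8885356-8885655, both on the plus strand, and are written 5′ to 3′. Capitals mark matches on either strand to TCACNCCAC, the core of the sterol regulatory element bound by SREBP factors, to CCAAT, the box of the factor NF-Y, and to GGGCGG, the box of the factor Sp1.
Hmgcs1: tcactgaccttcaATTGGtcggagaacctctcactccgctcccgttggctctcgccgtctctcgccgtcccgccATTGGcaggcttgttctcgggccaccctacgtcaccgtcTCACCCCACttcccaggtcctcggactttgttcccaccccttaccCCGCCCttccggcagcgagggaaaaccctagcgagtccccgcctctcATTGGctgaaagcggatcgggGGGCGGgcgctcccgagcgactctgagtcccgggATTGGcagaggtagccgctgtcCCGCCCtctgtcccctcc
Idi1: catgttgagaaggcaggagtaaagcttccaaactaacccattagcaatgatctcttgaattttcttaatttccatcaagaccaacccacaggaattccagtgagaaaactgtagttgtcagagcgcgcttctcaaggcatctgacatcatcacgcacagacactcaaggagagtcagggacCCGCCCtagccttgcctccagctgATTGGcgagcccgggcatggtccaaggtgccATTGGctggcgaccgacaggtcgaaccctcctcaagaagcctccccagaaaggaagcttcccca

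The Hmgcs1 window held 1 match to the sterol regulatory core, which begins 137 bases before the start site, with 4 CCAAT and 3 GGGCGG matches. The Idi1 window held 2 CCAAT matches and 1 GGGCGG match, and none to the sterol regulatory core, which says only that these letters are not in this window. No base was shared by 2 matches in either window. Over all 32851 windows of the table, 1.24% held the sterol regulatory core, 37.4% CCAAT and 35.7% GGGCGG. All 5 windows of the chosen genes held both CCAAT and GGGCGG, and 1 of the 5, that of Hmgcs1, held the sterol regulatory core. These matches describe sequence and are not measured binding sites.

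RNA of the cholesterol synthesis enzymes differed little between null and wild-type ileum. The means of the 7 genes over the pairs ran from -0.11 for Idi1 to 0.0065 for Hmgcs1, or 0.927-fold to 1.00-fold, and 6 of the 7 lay below 0. The sign of the smallest of these, Fdft1, turned without pair 1 (0.0087), without pair 3 (0.00067) and after scaling the arrays to equal spread (0.00077), that of Hmgcs1 without pair 4 (-0.050) and with the null sample in Cy5 alone (-0.027), and that of Sqle with the null sample in Cy3 alone (0.00088). None passed the test. Of the 11 probes, 0 had a limma adjusted p below the threshold of 0.05, as for 0% of all 36591 probes, and 0 had an unadjusted p below it, against 5.47% of all probes. The adjusted test did not call the targeted gene either. The Lgr5 probe, below 0 on all 8 arrays, had a limma adjusted p = 0.723 (unadjusted 0.00033). Failing the adjusted threshold therefore does not show equal RNA. As genes, 0 of 7 had an unadjusted p below 0.05, against 6.32% of all genes. The median of the 7 gene means was -0.056, and 49.97% of all genes also had a mean below 0, with a median of 4.2e-05.

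**Figure D1:**
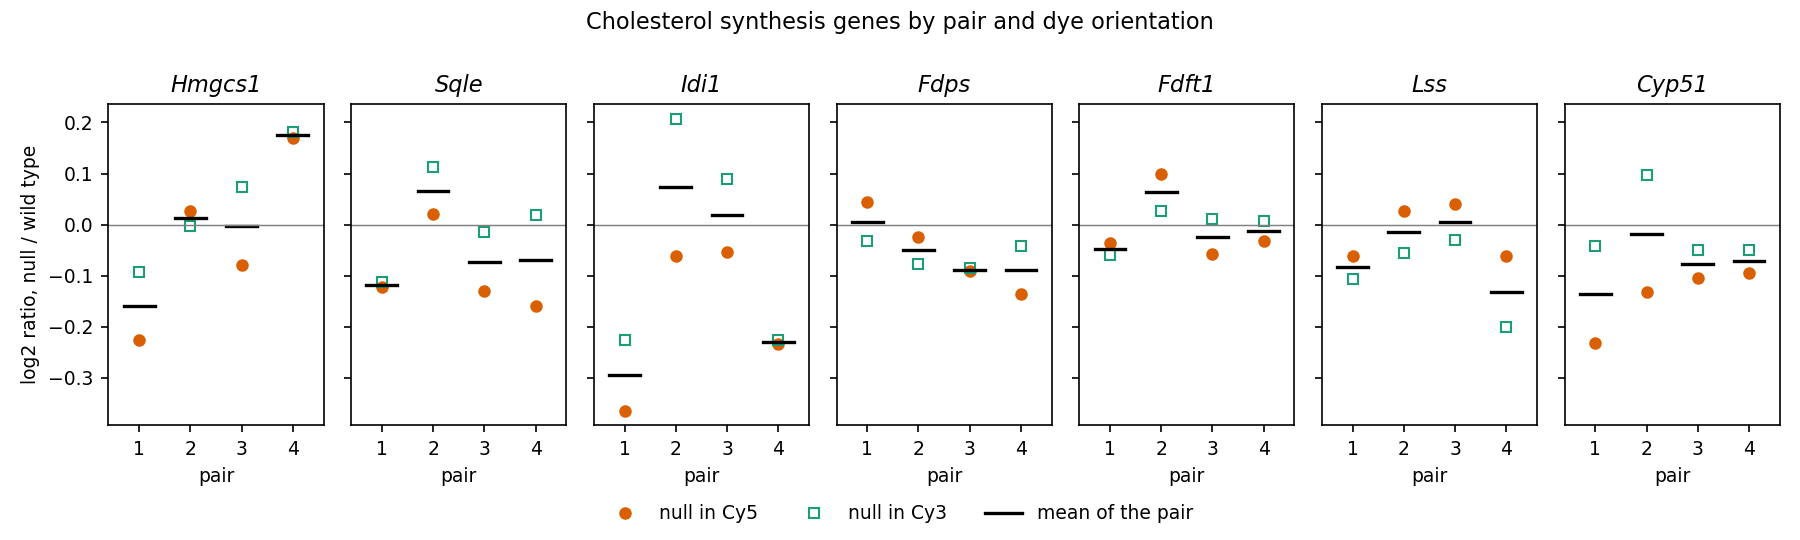
Log2 ratio of null over wild type (vertical axis) in the 4 pairs (horizontal axis) for each measured cholesterol synthesis gene, as the mean of its probes. Filled points are arrays with the null sample in Cy5, open squares arrays with it in Cy3, and bars their mean. Idi1 runs from -0.30 in pair 1 to 0.073 in pair 2, while Fdft1 stays between -0.048 and 0.064.

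The first steps make mevalonate and turn it into isoprenoid units. Hmgcs1, the cytosolic synthase that makes the precursor of mevalonate, stood at -0.16, 0.013, -0.0030 and 0.18 in pairs 1 to 4. The null sample was thus lower in pair 1 and higher in pair 4, with almost no difference in the middle pairs. Its mean was 0.0065 ± 0.14 (SD, n = 4 pairs; limma adjusted p = 0.987), with a 95% interval from -0.15 to 0.16.

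Idi1, the isomerase that interconverts the basic isoprenoid units, had the widest spread of the 7 genes. Its single probe gave -0.365 and -0.226 on the arrays of pair 1, -0.061 and 0.207 in pair 2, -0.053 and 0.089 in pair 3, and -0.235 and -0.227 in pair 4, each time with the null sample in Cy5 first. All 4 arrays of pairs 1 and 4 were therefore below every array of pairs 2 and 3. The pair means were -0.30, 0.073, 0.018 and -0.23, and their mean was -0.11 ± 0.18 (SD, n = 4 pairs; limma adjusted p = 0.867; 95% interval -0.30 to 0.085). Without pair 1 the mean was -0.047 and without pair 2 it was -0.17.

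Fdps, which makes farnesyl diphosphate, the branch point to sterols and protein prenylation, had 2 probes that did not follow each other. One, mMC003339, gave -0.011, -0.043, -0.021 and 0.0090 in pairs 1 to 4, and the other, mMC020798, gave 0.022, -0.059, -0.16 and -0.19. The first stayed near 0 throughout, and the second was lower in the null samples of pairs 3 and 4. Over the 8 arrays the 2 probes correlated at r = -0.514. As a gene, Fdps had a mean of -0.056 ± 0.045 (SD, n = 4 pairs).

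The next steps commit carbon to sterols. Fdft1, the squalene synthase, had the smallest mean in size, at -0.0055 ± 0.048 (SD, n = 4 pairs), with -0.048, 0.064, -0.024 and -0.014 in pairs 1 to 4. Sqle, the squalene epoxidase and a rate-limiting step of the pathway, had pair values of -0.12, 0.067, -0.073 and -0.070 as a gene, so that pair 2 alone lay above 0. Its mean was -0.049 ± 0.080, and its 2 probes correlated at r = 0.568 over the 8 arrays. Both genes were highest in pair 2 and lowest in pair 1.

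Lanosterol synthesis and demethylation follow. Lss, the lanosterol synthase, gave -0.084, -0.014, 0.0055 and -0.13 in pairs 1 to 4. The mean was -0.056 ± 0.063 (SD, n = 4 pairs). Its probes differed by up to 0.127 in a pair. Cyp51, the lanosterol demethylase, gave -0.14, -0.018, -0.077 and -0.072, and was the only one of the 7 genes below 0 in all 4 pairs, against 8.28% of all genes. Its mean was -0.076 ± 0.049, or 0.949-fold. Its probe mMR028314 had the lowest unadjusted p of the 11, 0.0607 by limma, with an adjusted p = 0.867.

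**Figure D2:**
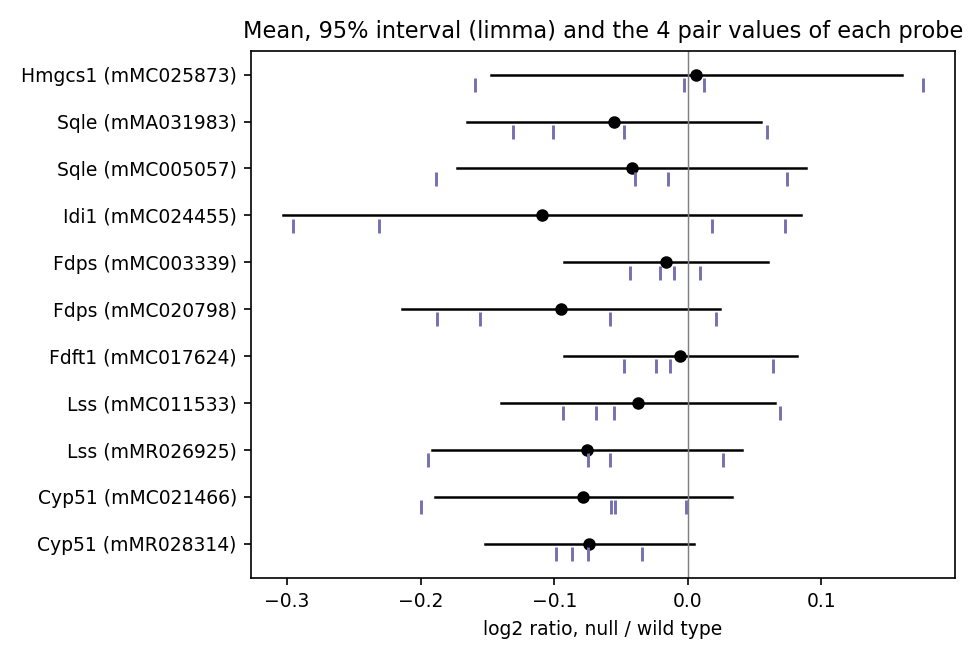
Mean log2 ratio of null over wild type (point) with its 95% interval from limma (line) for each of the 11 probes, with the values of the 4 pairs as ticks below each line. Every interval spans 0, and the widest, that of Idi1, runs from -0.30 to 0.085.

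The intervals bound the size of a difference these arrays leave possible. Lower ends ran from -0.30 for Idi1, or 0.811-fold, to -0.093 for one Fdps probe and for Fdft1. Upper ends ran from 0.0048 for a Cyp51 probe to 0.16 for Hmgcs1, or 1.12-fold. These are intervals of single probes over 4 pairs that share 3 parental couples, and they assume that array ratios are not compressed toward 0, which was not tested. The SD between pairs was smaller than that of most genes for Fdps, Fdft1, Cyp51, Lss and Sqle, where 14.6% to 40.1% of all genes had a smaller one. It was larger for Idi1 and Hmgcs1, at 77.9% and 66.4%.

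The dye orientation moved these small values. Of 28 gene and pair combinations, 17 had both arrays on the same side of 0. With the null sample in Cy5 alone the median of the 7 gene means was -0.052, and with it in Cy3 alone it was -0.011. Cyp51 stood at -0.14 in the first case and -0.011 in the second, and Idi1 at -0.18 and -0.039. With Cy5 alone these 2 of the 7 genes had an unadjusted p below the threshold, with limma adjusted p = 0.380 and 0.436. In that setting 3943 of all 36591 probes had an unadjusted p below it, against 2003 with both orientations averaged.

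Differences between the pairs were tested against the error between the 2 arrays of a pair, which is technical, so ordinary variation between embryos can pass this test. By limma's moderated F-test 1 of the 11 probes was called, that of Idi1 (adjusted p = 0.0319), against 22.9% of all probes. With the probes of a gene averaged, 2 of 7 genes were called, Idi1 (adjusted p = 0.0217) and Hmgcs1 (0.0429), against 30.9% of all genes. These shares do not exceed the background. The Idi1 probe was past the threshold neither without pair 1 (0.183), without pair 2 (0.0752), without the dye term (0.122) nor with arrays scaled to a common spread (0.0600). Idi1 and Hmgcs1 both stood low in pair 1 and took opposite sides of 0 in pair 4, at -0.23 and 0.18.

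The 7 genes followed one another loosely. Over the 8 arrays, which share pairs and dyes, the 21 correlations between 2 genes had a median of r = 0.194 and ran from -0.655 for Hmgcs1 and Fdps to 0.747 for Sqle and Fdft1. Idi1 and Cyp51 correlated at 0.731 and Sqle and Idi1 at 0.692. The mean of the 7 genes was -0.12, 0.019, -0.034 and -0.062 in pairs 1 to 4. The genes with the profile most like that mean, among 7560 genes with at least the median SD between pairs, were Lat at r = 0.991, Zfp866 at 0.985, Smn1 at 0.981, Zyx at 0.981, Unc13b at 0.976, Ebf2 at 0.975, P4ha1 at 0.975 and Msh6 at 0.974. The 7 genes themselves were left out of this search, and none of the genes found is another sterol synthesis enzyme. These are the highest of many correlations over 8 arrays.

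The remaining enzymes of the pathway did not pass the test of null against wild type either. In the mevalonate arm 7 of 9 listed genes were measured, 3 of them already described, with a median mean of -0.024 and 4 means below 0. Mvk, the mevalonate kinase, gave 0.16, 0.18, -0.12 and -0.31 in pairs 1 to 4. Pmvk, the next kinase, gave 0.22, 0.050, -0.13 and -0.071, and Ggps1, which makes geranylgeranyl diphosphate, had a mean of -0.097 ± 0.14 (SD, n = 4 pairs). The 3 Ggps1 probes differed, with means of -0.029, -0.189 and -0.073, and pair 1 values of 0.1945, -0.345 and 0.078. Mvk and Pmvk were thus above 0 in pairs 1 and 2 and below 0 in pairs 3 and 4, whereas Idi1 and Hmgcs1 were lowest in pair 1. Of the 7 genes, 5 were called between pairs, or 71.4%, against 30.9% of all genes. The median of the list turned to 0.0090 without pair 3 and was -0.052 without pair 1 and -0.057 without pair 2.

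In the sterol arm 10 of 13 listed symbols were measured, with a median mean of -0.034. Msmo1 was also listed under its older symbol Sc4mol, which no probe carried. The 10 genes include Sqle, Fdft1, Lss and Cyp51, already described, and so does the median. Msmo1, which removes methyl groups from sterol intermediates, had the largest single value of the pathway. Its single probe gave -1.021 and -1.246 on the arrays of pair 2, 0.498 and 0.292 in pair 1, -0.035 and -0.030 in pair 3, and -0.252 and -0.143 in pair 4. The null sample of pair 2 was therefore low with either dye, and its gene mean was -0.24 ± 0.65 (SD, n = 4 pairs; limma adjusted p = 0.855, between pairs 0.000665). Nsdhl, a sterol dehydrogenase encoded on the X chromosome, gave 0.20, 0.086, -0.15 and -0.36, and its probes disagreed in pair 1, where mMC018839 gave -0.252 and -0.216 and mMC023481 gave 0.442 and 0.450. Dhcr7, which makes cholesterol from its last precursor, gave 0.22, -0.15, -0.059 and 0.065. Of the 10 genes, 6 were called between pairs, against 30.9% of all genes. These were Msmo1, Nsdhl, Hsd17b7, Ebp, Sc5d and Dhcr7, and none of the genes of this arm already described was called. The median of the list stayed below 0 in the settings run, between -0.049 without pair 2 and -0.0071 with the null sample in Cy3 alone.

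**Figure D3:**
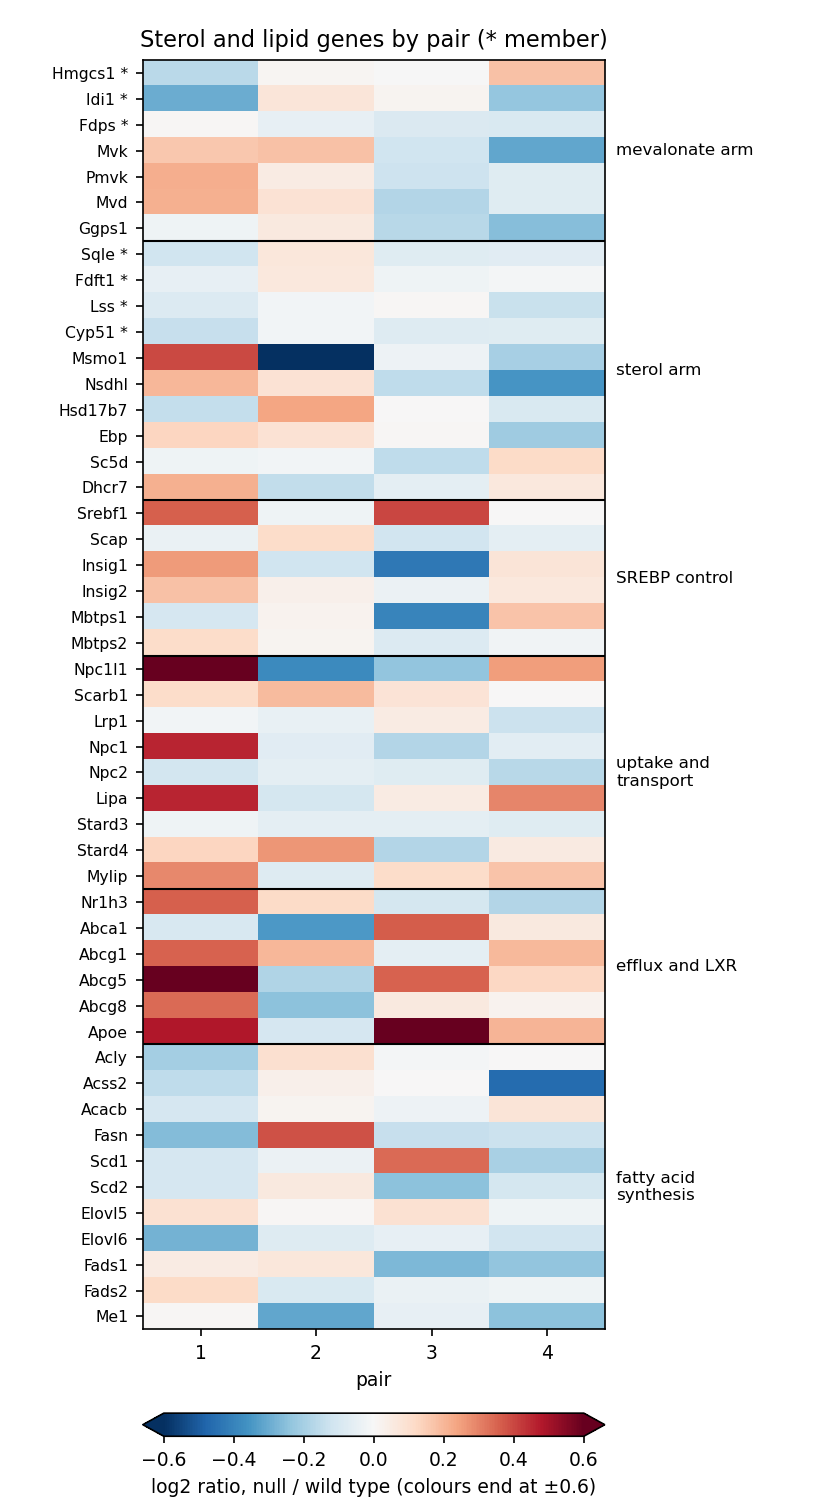
Log2 ratio of null over wild type (colour) for each measured gene of the sterol and lipid lists (rows) in the 4 pairs (columns), with the 7 cholesterol synthesis genes starred. Colours end at 0.6 in either direction, and Msmo1 in pair 2, at -1.13, is among the values beyond the end.

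Genes that control or follow SREBP activity were also within the spread between pairs. Of 7 listed control genes 6 were measured, with a median mean of -0.010, and 0 had an unadjusted p below the threshold, against 6.32% of all genes. That median was above 0 without pair 3 (0.054), without pair 4 (2.1e-05) and with either dye orientation alone (0.019 and 0.021). Srebf1, which encodes the SREBP form that drives fatty acid synthesis, gave 0.36, -0.024, 0.40 and 0.0045 in pairs 1 to 4, with its mean at 0.19 ± 0.22 (SD, n = 4 pairs). Insig2, a retention factor for SCAP, had a mean of 0.060 ± 0.087. Mbtps1, a protease that cleaves SREBP, had a mean of -0.076 ± 0.24, and its value in pair 3 came from probe mMA034153, which read -2.551 with the null sample in Cy5 and 0.092 with it in Cy3. Insig1, an SREBP2 target chosen after its values were seen, gave 0.26, -0.12, -0.43 and 0.080, and was the 1 gene of this list called between pairs, against 30.9% of all genes.

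Uptake and intracellular transport genes had a median mean of 0.058, with 9 of 14 listed genes measured. Without pair 1 that median was -0.041, so its sign rested on pair 1, and it was 0.11 without pair 3 and 0.024 after scaling the arrays to equal spread. Lipa, the lysosomal lipase that frees cholesterol, gave 0.46, -0.10, 0.047 and 0.29 in pairs 1 to 4. Mylip, a ubiquitin ligase that lowers lipoprotein receptors, had a mean of 0.12 ± 0.15 (SD, n = 4 pairs), and Npc2, a lysosomal cholesterol carrier, -0.10 ± 0.048. Npc2 was 1 of 2 genes of the list below 0 in all 4 pairs, against 8.28% of all genes. It was the 1 gene of the 9 with an unadjusted p below the threshold, against 6.32% of all genes (limma adjusted p = 0.748). Npc1l1, the intestinal cholesterol importer, and Scarb1, a lipoprotein receptor, were chosen after their values were seen. Npc1l1 gave 0.60, -0.38, -0.24 and 0.25, and Scarb1 0.11, 0.19, 0.084 and 0.0023. Of the 9 genes, 5 were called between pairs, or 55.6%, against 30.9% of all genes. Npc1l1 was 1 of these (moderated F-test, adjusted p = 0.000570). Scarb1 was the 1 gene of the list above 0 in all 4 pairs, a share not counted over all genes. It did not pass the test of null against wild type (limma adjusted p = 0.800).

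Efflux and sterol-sensing genes had a median mean of 0.11, with 6 of 7 listed genes measured and 5 means above 0. Apoe, an apolipoprotein, gave 0.48, -0.10, 0.71 and 0.21 in pairs 1 to 4, with its mean at 0.32 ± 0.35 (SD, n = 4 pairs; limma adjusted p = 0.800). Abcg5, a subunit of a sterol exporter of the enterocyte surface, gave 0.81, -0.18, 0.36 and 0.13, and Abcg1, another sterol exporter, 0.35, 0.20, -0.057 and 0.19. None had an unadjusted p below the threshold, against 6.32% of all genes, and all 6 genes were called between pairs, against 30.9% of all genes. Without pair 1 the median of the list was 0.063.

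Fatty acid synthesis genes had a median mean of -0.037, with 11 of 12 listed genes measured and 9 means below 0. Me1, which supplies reducing power, had a mean of -0.15 ± 0.15 (SD, n = 4 pairs), and Elovl6, a fatty acid elongase, -0.13 ± 0.10 with a value below 0 in all 4 pairs. Elovl6 was the 1 gene of the list below 0 in all 4 pairs, against 8.28% of all genes. It was also the 1 gene of the 11 with an unadjusted p below the threshold, against 6.32% of all genes (limma adjusted p = 0.779). Acss2, which makes acetyl-CoA from acetate, had a mean of -0.15 ± 0.22, and 1 of its probes read -1.294 on the first array of pair 4 and 0.029 on the other. Of the 11 genes, 4 were called between pairs, or 36.4%, near the 30.9% of all genes. The median of the list was -0.12 with the null sample in Cy5 alone, 0.0029 with it in Cy3 alone and -0.096 without pair 2.

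Medians of several marker lists of other cells ranged more widely between the pairs than the median of the 7 cholesterol synthesis genes, which ran from -0.12 to 0.013. The epithelium median ranged less, from -0.033 to 0.061, as did the cell cycle median, from 0.0405 to 0.1395. The smooth muscle median ran from -0.12 to 0.12. Liver genes, of which 13 of 14 were measured, had medians of -0.28, -0.18, 2.08 and 0.49 in pairs 1 to 4, and Alb, the albumin gene, stood at 1.69 in pair 3. The median of the 7 genes in pair 3 was -0.024, with values from -0.088 to 0.018. Pancreas and erythroid genes also had their highest medians in pair 3, at 2.67 and 1.53. In pair 1, where the median of the 7 genes was lowest at -0.12, the enterocyte median was 0.42, that of immediate early genes 0.67 and that of enteric neurons and glia -0.54. Fibroblast and matrix genes had medians of -0.42, -0.18, -0.14 and -0.43 in pairs 1 to 4, with all 10 means below 0 and 8 of 10 genes at an unadjusted p below the threshold, against 6.32% of all genes, and 0 at an adjusted p below it. In pair 1, 9 of 10 enterocyte genes were above 0, with a range from -0.19 to 1.34, and Npc1l1, Abcg5 and Lipa were also at their highest. The part of these cells in the values of the sterol genes was not tested.

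**Figure D4:**
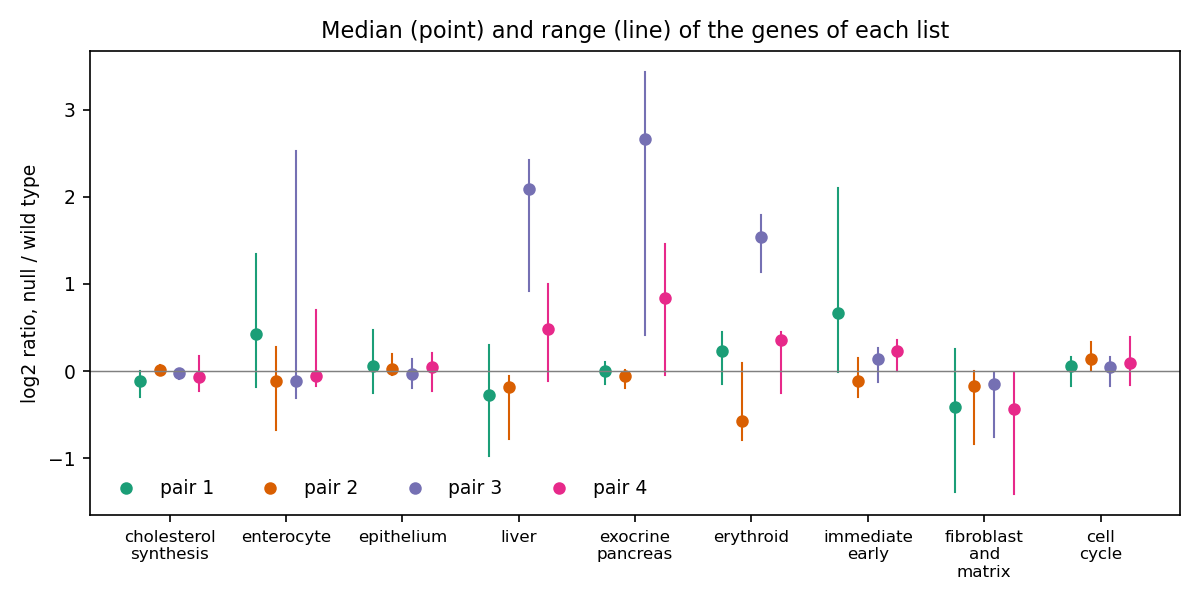
Median (point) and range from the lowest to the highest gene (line) of the log2 ratios of null over wild type for the cholesterol synthesis genes and for marker lists, in each of the 4 pairs (colours). The cholesterol synthesis genes stay between -0.30 and 0.18, while the liver median reaches 2.08 and the pancreas median 2.67 in pair 3.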

How the data were processed

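Per the labels' protocols, antisense RNA amplified from 1 µg of total RNA was dyed, and the null and wild-type samples of a pair shared each array. The authors deposited 1 log ratio per probe and array, taken here as log2. No source used here gives the numerator, background correction or normalization. The table holds 38467 probes (38784 per the labels), without missing values. Ratios of dye-swapped arrays correlated above 0 and were taken as already turned one way. The platform annotation named 22941 probes, and 1876 probes of 4 identifier classes without genes were left out, leaving 36591.

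The 2 arrays of a pair were averaged, and a 2-sided test of the 4 pair means against 0 was made in limma (version 3.58.1, R 4.3.3) by an intercept fitted per probe and eBayes. P-values were adjusted by Benjamini-Hochberg over all probes, or over all genes for gene-level values, at 0.05. For null against wild type they set the mean of the pairs against the spread between these pairs, as moderated by eBayes. Pair differences were tested on 8 arrays with a coefficient per pair and a dye term (moderated F-test). Gene values are means of probes, with Lrp1 resting on 95 of them. Simulated data served to check the tests. With 4 pairs, the smallest p of an exact sign-flip test is 0.125. Precision is limited by the number of embryo pairs for null against wild type, as the 2 arrays of a pair are averaged. For pair differences it is limited by the number of arrays.

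The genes, lists, marker lists and named genes were chosen with earlier results of these data known. Beside the 7 genes themselves, the 3 other genes with the largest mean in size were named from each pathway list. Hsd17b7, Ebp and Sc5d were named because they were called between pairs, and Lrp1 for its number of probes. Other names from these lists are marked as chosen after their values were seen. Alternatives were each pair left out, each dye orientation alone, arrays scaled to a common spread, all probes, gene-level means, an ordinary 1-sample test, a random block for the pair and no dye term. Motifs and figures used Python 3.11.15 and matplotlib 3.10.9. Related genes and pseudogenes may share signal, which was not measured.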

Additional observations from a re-analysis of the deposited data

Results flagged for a closer look

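A pair was singled out when its gap to the nearest other pair, over the range of all 4, was above Dixon's 95% critical value, which chance does for about 1 in 20 independent items. Of 53 items examined 1 met this, the median of the enterocyte list, at 0.421 in pair 1 against -0.117 to -0.061 in the other pairs. None of the 7 cholesterol synthesis genes or their 11 probes did.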

How the results depend on the processing

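No member passed an adjusted threshold for null against wild type under any of the alternatives run, with adjusted p from 0.380 to 0.999 across the 7 genes. Over all probes 0 were called in each, except that the 8 arrays with the pair as a random block gave 12 probes with a dye term and 84 without, the latter fit chosen after seeing the data. At an unadjusted p under 0.05 the number of probes ran from 1234 without pair 4 to 3943 with the null sample in Cy5 alone, against 2003. The median of the 7 gene means stayed below 0 in every setting, between -0.074 and -0.011. For differences between pairs, 8384 probes were called, 5019 without the dye term and between 1564 and 8928 with 1 pair left out, the lowest without pair 1 and 5293 without pair 2. Gene-level means, added after seeing the data, gave 4673 genes. Without pair 3, 2 of the 11 member probes were called by the moderated F-test, against 24.4% of all probes. These were the probes of Hmgcs1 (adjusted p = 0.0335) and Idi1 (0.0267). The causes were not tested. Signal over background is unknown, which limits how far a small ratio can be read.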
